A study of Mus musculus with 12 samples.

Results

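Transcript levels in eWAT, the epididymal fat pad of the mouse abdomen, were compared between all mice that had lost 70% of the liver and mice with an intact liver. The 8 libraries made after partial hepatectomy, 5 from day 3 and 3 from day 7, were taken as 1 group and set against the 4 libraries of sham-operated mice, so that all 12 libraries of the series were used. The mice were males aged 12 to 14 weeks, of strain C57bl6 in the sample labels and C57BL6/J in the series design, and no genetic change is named. Sham surgery was a laparotomy that left the liver whole. The labels do not give the day on which sham mice were killed, and their source field places them before hepatectomy, so that recovery time after surgery and hepatectomy cannot be told apart. Each library was bulk RNA of 1 animal, and the p-values rest on the spread between animals.

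After partial hepatectomy the remaining liver regrows, and fat stores are known to be drawn on while it does. The comparison addresses which transcripts in the depot lay to the same side of sham at both days. Some gene groups used here are standard machinery. The proteasome is the barrel-shaped protease that degrades ubiquitin-tagged proteins. Its core particle is capped by a regulatory particle that binds and unfolds substrates, and immune signals replace the active core subunits with immunoproteasome subunits. Interferon-stimulated genes encode antiviral proteins, and glucocorticoids are adrenal hormones that act on fat through a nuclear receptor.

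Library totals ranged from 13128853 to 23474246 counts. The labelled tissue was checked with markers: Adipoq, Plin1, Fabp4 and Cidec, defining genes of mature fat cells, were detected in every library. Of 15 epididymis markers, 6 were among the deposited genes, and 0 passed the filter on low counts. Adipoq ranged from 1595 to 4227 CPM (counts scaled to library size) in sham and 328 to 4331 CPM after hepatectomy. Several libraries stood apart. Day 3 library 1 held 359 CPM of Xist, which female cells express, and 0.643 CPM of the Y-linked Ddx3y, which ranged from 81.1 to 144 CPM in the other 11 libraries, against its male label. Sham library 4 held 2315 CPM of albumin, a liver transcript, against 1.78 to 5.99 CPM in the other sham libraries. Across genes, day 3 library 5 was closest to day 7 library 2 (r = 0.957) and day 7 library 1 to day 3 library 2 (r = 0.936). Day 3 library 5 and day 7 library 2 also had the highest shares of mitochondrial counts (8.25% and 9.05%, against 3.64% to 6.56% elsewhere). Of the 8 hepatectomy libraries, 3 correlated better on average with the sham libraries than with either hepatectomy day. Day 3 library 5 had a mean r of 0.926 with sham and 0.894 with day 3, day 7 library 2 had 0.916 with sham and 0.892 with day 7, and day 7 library 3 had 0.918 with sham and 0.905 with day 7. The labelled groups were kept for all of them, and the part of RNA quality in any result was not tested.

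Of 17012 genes tested, 0 passed an adjusted p of 0.05 in edgeR's quasi-likelihood test with hepatectomy as 1 coefficient (0% called). The smallest adjusted p was 0.0683, for Cgn. At an unadjusted p under 0.05, 1078 genes were higher (6.34%) and 846 lower (4.97%) after hepatectomy. DESeq2, run on the same counts, called 102 genes higher (0.682% of 14964) and 54 lower (0.361%), and limma voom with sample weights called 4 genes, all lower (0.0235%). Those 4 were Cgn, Pisd-ps1, AI661453 and 2610016A17Rik. Since no gene passed edgeR, the values below describe levels and differences.

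Of the genes tested, 212 did not overlap between the groups, meaning that all 5 day 3 and all 3 day 7 libraries lay on the same side of all 4 sham libraries (1.25%). Of these, 82 were higher in each of the 8 hepatectomy libraries (0.482%) and 130 were lower in each (0.764%). DESeq2 also called 28 of the 82 and 34 of the 130, which makes 62 genes both called by that test and shifted at both days in common. The higher genes differed by little, with a median log2 difference of 0.58, and 16 of 82 differed by more than 1 on the log2 scale. Lower genes differed by more, with a median of -1.02 and 66 of 130 past 1 in size. The part of expression level in this contrast was not tested. Among the lower genes, 13 were long non-coding RNAs (10%) and 113 protein coding (86.9%). Among the higher genes, 8 were processed pseudogenes (9.76%) and 72 protein coding (87.8%). Of all genes tested, 6.29% were long non-coding RNAs, 7.57% processed pseudogenes and 83.1% protein coding, so that these shares lay near the background. In bulk tissue, fewer cells of a type and less RNA per cell cannot be told apart for any of the 212 genes. Day 7 against day 3 gave an unadjusted p under 0.05 for 1 of the 82 and 5 of the 130 genes, and for 568 of all genes tested.

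Among the genes higher in every hepatectomy library, the 12 with the smallest p were Psmb3, Usp6nl, Kansl2-ps, Msra, Fmnl2, Scfd1, Cipc, Gab2, Psma2, Psmb7, Psma6 and Csgalnact1. Each had an adjusted p of 0.366 in edgeR's quasi-likelihood test, so none passed, and each passed DESeq2 (adjusted p from 0.000508 for Psmb3 to 0.0271 for Psma2). Fmnl2, a formin that elongates actin filaments (chr2:52747872-53023817, mm39), stood at 12.6, 24.9, 22.1 and 23.3 CPM in sham libraries 1 to 4 and at a median of 53.7 CPM (lowest 29.5, highest 89.7) in the 8 hepatectomy libraries. The difference was 1.38 on the log2 scale (SE 0.318), the largest of the 12, with 1.40 at day 3 and 1.35 at day 7. The lowest hepatectomy library, day 3 library 5, lay just above the highest sham library.

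In what follows, a value in brackets with an SE is the log2 difference of hepatectomy minus sham. Gab2, a docking protein that relays signals from cytokine and growth factor receptors, stood at 43.8, 64, 55.1 and 56.1 CPM in sham and at a median of 115 CPM (lowest 64.4, highest 151) after hepatectomy, a log2 difference of 0.97 (SE 0.242). Its 2 lowest hepatectomy values were day 7 libraries 2 and 3, at 72.3 and 64.4 CPM. Usp6nl, a GTPase-activating protein for the endosomal Rab5, kept to 20.2 to 22.1 CPM in sham and 28.5 to 52.1 CPM after hepatectomy (0.86, SE 0.187). Csgalnact1, which starts chondroitin sulfate chains, ranged from 6.09 to 8.49 CPM in sham and 9.27 to 17.5 CPM after hepatectomy (0.91, SE 0.234). Here the margin between the groups was narrow.

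Msra, an enzyme that repairs oxidised methionine, stood at 27.9, 31.4, 38 and 31.4 CPM in sham and at a median of 49.2 CPM (lowest 42.2, highest 65.3) after hepatectomy (0.66, SE 0.150). Scfd1, which serves vesicle fusion between endoplasmic reticulum and Golgi, ranged from 18.2 to 27.2 CPM in sham and 28.9 to 39.8 CPM after hepatectomy (0.63, SE 0.149). Cipc, a repressor that binds the clock factor CLOCK, stood at 30.8, 31.8, 31.2 and 33.8 CPM in sham, a spread of under 4 CPM, and at a median of 50.2 CPM (lowest 36.2, highest 56.5) after hepatectomy (0.58, SE 0.141). The day 3 and day 7 estimates of these 3 genes lay within 0.1 of each other on the log2 scale. Kansl2-ps is a processed pseudogene of a chromatin-complex gene (0.88, SE 0.201), so reads may have been shared with its parent, and its value is uncertain.

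**Figure D1:**
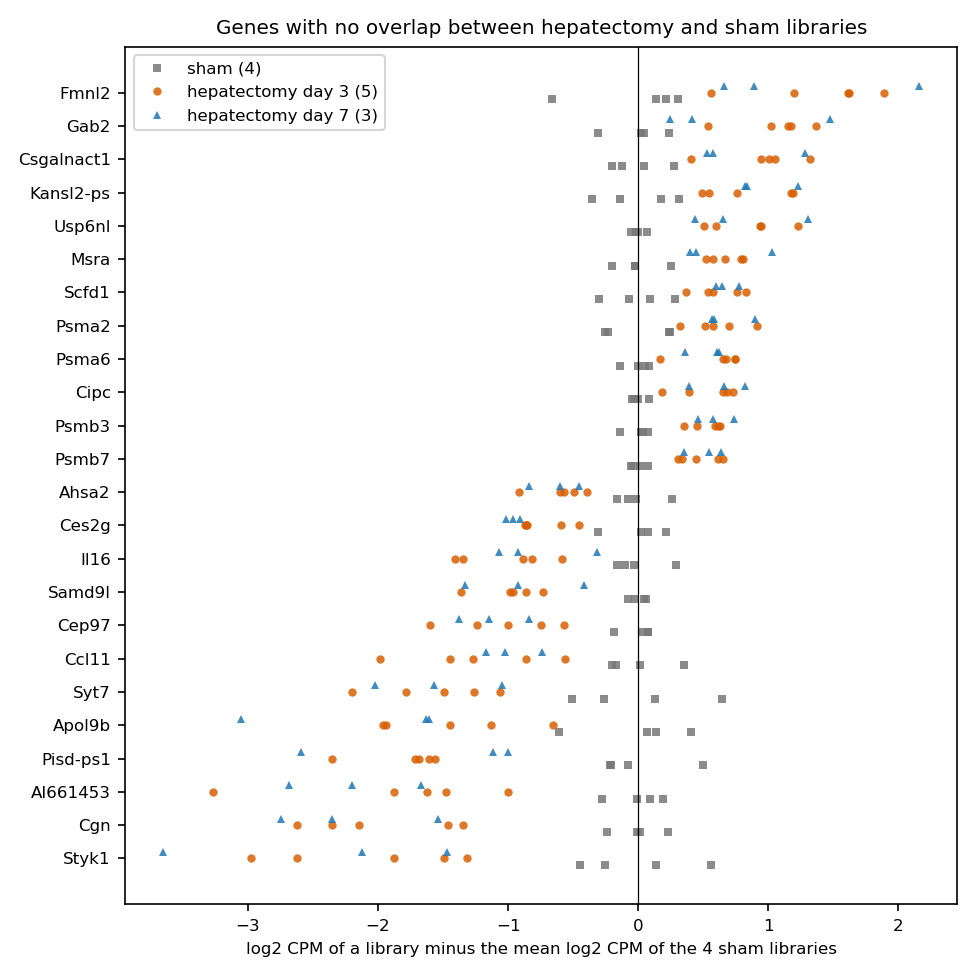
Level of each library relative to sham for the 24 genes with the smallest p among those that do not overlap, as log2 CPM minus the mean log2 CPM of the 4 sham libraries (x axis), with 1 symbol per library (4 sham, 5 day 3, 3 day 7). Every day 3 and day 7 symbol of a gene lies on 1 side of its sham symbols because the genes were chosen for that, and the spread among hepatectomy libraries is widest for lower genes such as Apol9b and Styk1.

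Proteasome genes made up 9 of the 82 higher genes, in 2 of the complex's parts. Of 14 core subunits 6 were higher without overlap, and of 17 regulatory subunits 3 (0.482% of all genes were). Of 3 immunoproteasome subunits and 8 assembly chaperones, 0 were. They were the core subunits Psma1, Psma2, Psma6, Psmb2, Psmb3 and Psmb7 and the regulatory subunits Psmd1, Psmd6 and Psmd14. Psmb3, a structural beta subunit of the core (chr11:97594225-97604327, mm39), stood at 57.5, 59.6, 58.1 and 51.3 CPM in sham libraries and at a median of 84.8 CPM (lowest 72.2, highest 94) in hepatectomy libraries. The difference was 0.55 on the log2 scale (SE 0.120), with 0.53 at day 3 and 0.59 at day 7. Day 3 library 5 was the lowest hepatectomy library, and it still lay well above the highest sham library.

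Psmb7, a catalytic beta subunit, stood at 71.9, 69.4, 68.5 and 75 CPM in sham and at a median of 100.1 CPM (lowest 88, highest 112) after hepatectomy (0.49, SE 0.125). Psma2 and Psma6, alpha subunits of the outer rings, differed by 0.63 (SE 0.158) and 0.58 (SE 0.148). Psmd1, a large scaffold subunit of the regulatory particle, stood at 68.7, 90.01, 71.2 and 93 CPM in sham and at a median of 115 CPM (lowest 102, highest 149.6) after hepatectomy (0.57, SE 0.159). Psmd14, the enzyme that removes ubiquitin from substrates at the regulatory particle, ranged from 38.4 to 53.8 CPM in sham and 55 to 78 CPM after hepatectomy (0.50, SE 0.145). Psma5 and Psmb5 had the largest differences of the core subunits (0.68, SE 0.175, and 0.63, SE 0.177), but day 3 library 5 lay inside their sham range.

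The subunits were then read as whole families, which were chosen after their values were seen. Of 14 core subunits, 13 had a positive log2 difference (50.1% of all genes tested did), with a median of 0.46, and 9 were higher at an unadjusted p under 0.05 (6.34% of all genes). The exception was Psma4 (-0.053, SE 0.156). Of 17 regulatory subunits, 16 were positive with a median of 0.34, the exception being the ATPase Psmc5 (-0.089, SE 0.135). The median over all genes tested was 0.0017. DESeq2 called 6 core subunits and 1 regulatory subunit higher (0.682% of all genes). Leaving out any 1 library kept the core median between 0.43 and 0.48 and the regulatory median between 0.30 and 0.39.

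Immunoproteasome and assembly genes did not share that direction. Psmb8, Psmb9 and Psmb10, the subunits that interferon-gamma is known to induce, had log2 differences of -0.28 (SE 0.153), -0.87 (SE 0.358) and -0.42 (SE 0.236). Psmb9 stood at 29.5, 20.1, 20.5 and 26.5 CPM in sham and at a median of 10.6 CPM (lowest 5.99, highest 25.7) after hepatectomy, with day 7 libraries 2 and 3 inside the sham range at 25.7 and 20.3 CPM. Of 8 assembly chaperones, which build the particle and do not belong to it, 1 was positive (median -0.10). Summed over the family, core subunits held 959 to 1077 CPM in sham and 1079 to 1419 CPM after hepatectomy, where day 3 library 5 was lowest. Regulatory subunits held 1378 to 1497 CPM in sham and 1441 to 2148 CPM after hepatectomy, so that their sums overlapped, with day 3 library 5 inside the sham range.

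**Figure D2:**
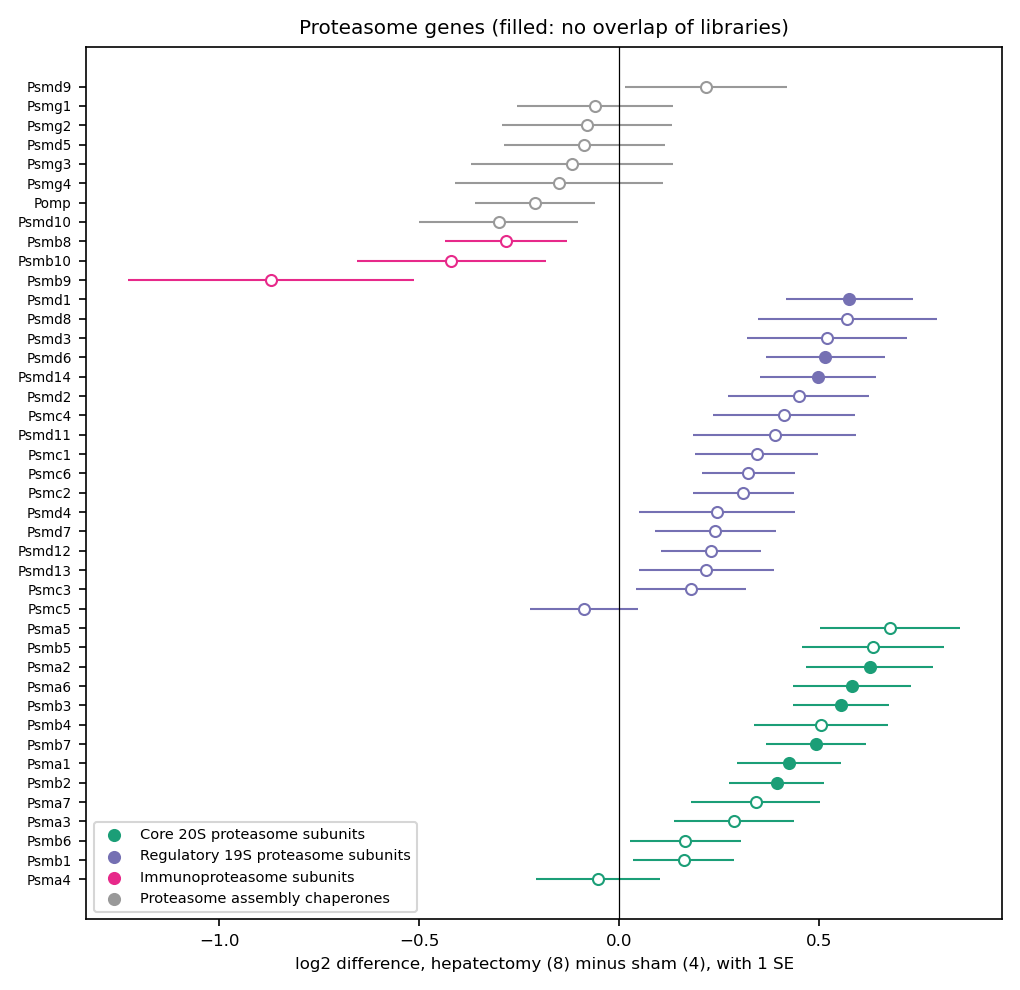
Log2 difference of each proteasome gene between the 8 hepatectomy and 4 sham libraries (x axis, points with 1 SE), grouped by its place in the complex; filled points mark genes with no overlap between the groups. Core and regulatory subunits lie right of 0 except Psma4 and Psmc5, and the 3 immunoproteasome subunits and 7 of 8 assembly chaperones lie left of it.

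Other genes higher in every hepatectomy library are named here after their values were seen. Bop1, which takes part in maturing the large ribosomal subunit, differed by 0.58 (SE 0.159), with 20.4 to 28.9 CPM in sham and 29.6 to 46.4 CPM after hepatectomy. Rraga, a GTPase that recruits the growth kinase complex mTORC1 to lysosomes, ranged from 40.1 to 47.7 CPM in sham and 50.4 to 91.9 CPM after hepatectomy (0.70, SE 0.187). Mios, part of the complex that signals amino acid supply to the Rag GTPases, differed by 0.53 (SE 0.187), and Atp6v1h, a subunit of the lysosomal proton pump, by 0.69 (SE 0.180). Cul3 and Cops5, a ubiquitin ligase scaffold and the catalytic subunit of the signalosome that controls such ligases, differed by 0.53 (SE 0.168) and 0.39 (SE 0.120).

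Larger differences were seen in low genes, of which Rgs1 and Bmp5 were named after their values were seen. Rgs1, a brake on G protein signalling in leukocytes, ranged from 0.0516 to 1.08 CPM in sham and 1.39 to 42.4 CPM after hepatectomy (4.62, SE 1.17, DESeq2 adjusted p 0.000304). Bmp5, a bone morphogenetic protein ligand, lay between 0 to 0.363 CPM in sham and 0.756 to 4.76 CPM after hepatectomy (3.40, SE 1.04). Cyp51, the lanosterol demethylase of cholesterol synthesis, stood at 30.2, 24.1, 21.8 and 29.8 CPM in sham and at a median of 59.7 CPM (lowest 31.9, highest 100.05) after hepatectomy (1.25, SE 0.321). Its lowest hepatectomy libraries, day 7 library 1 and day 3 library 5, lay at 31.9 and 33 CPM, close to the sham maximum.

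Cgn, which encodes cingulin, a protein of the cytoplasmic plaque of tight junctions, had the smallest p of all genes. It stood at 30.6, 22, 25.9 and 26.3 CPM in sham libraries 1 to 4 and at a median of 5.48 CPM (lowest 3.87, highest 10.2) after hepatectomy (chr3:94667376-94693827, mm39). The log2 difference was -1.99 (SE 0.273, edgeR adjusted p 0.0683, DESeq2 adjusted p 6.74e-07), with -1.91 at day 3 and -2.13 at day 7. Even the highest hepatectomy library, day 3 library 5, held less than any sham library did. Without day 3 library 5 edgeR called 2 genes, Cgn and Megf6, and without both day 3 library 5 and day 7 library 1 it called Cgn alone. In the authors' deposited table Cgn had log2 ratios of -1.91 at day 3 (false discovery rate 6.63e-05) and -2.13 at day 7 (0.000375).

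The other tight junction genes, a family chosen after its values were seen, had no common direction. Of 12 tested besides Cgn, 7 were positive and 5 negative, with a median of 0.32 (0.066 to 0.40 with a library left out). With Cgn counted, the median was 0.13 and its sign changed with the library left out (-0.015 to 0.26). Cgnl1, the paralog of cingulin, was lower with overlap (-0.96, SE 0.367), at 90.9, 147, 235 and 339.9 CPM in sham and at a median of 92.7 CPM (lowest 52.6, highest 185) after hepatectomy. The scaffold Tjp1 differed by -0.13 (SE 0.209).

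Mesothelial markers, which label the serosal cell layer on the depot, were lower in part of the same libraries. Of 17 tested, 13 had a negative difference, with a median of -0.72 (-0.58 at day 3, -1.13 at day 7), and DESeq2 called Aldh1a2, Nkain4 and Gpm6a lower (0.361% of all genes). Upk3b, a uroplakin and a defining mesothelial marker, stood at 313, 390.4, 318 and 520.4 CPM in sham and at a median of 232 CPM (lowest 78.9, highest 300.3) after hepatectomy (-0.93, SE 0.318) and was the 1 member with no overlap (background 0.764%). Msln, another defining marker, did not share this, at 136, 186, 117 and 163 CPM in sham and at a median of 179 CPM (lowest 31.9, highest 283) after hepatectomy (0.13, SE 0.442). Summed over the list, the markers held 1492 to 1982 CPM in sham and 558 to 1979 CPM after hepatectomy, with day 7 libraries 2 and 3 lowest. Without sham library 1 the median of the list was -0.42. The part of these markers in the Cgn result was not tested.

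Aldh1a2, which makes retinoic acid in mesothelium, stood at 72.6, 68.5, 32.6 and 52.1 CPM in sham and at a median of 30.4 CPM (lowest 19.9, highest 34.9) after hepatectomy (-1.01, SE 0.222), and 6 of 8 hepatectomy libraries lay below all sham libraries. Nkain4 and Gpm6a, membrane proteins used as mesothelial markers, differed by -1.07 (SE 0.262) and -0.88 (SE 0.227), each with 7 of 8 libraries below sham. In Nkain4 the library inside the sham range was day 3 library 5, at 40.9 CPM.

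Among the other genes lower in every hepatectomy library, the leading ones by p were Pisd-ps1, AI661453, Samd9l, Syt7, Ces2g, Ccl11, Styk1, Apol9b, Ahsa2, Cep97 and Il16. Their edgeR adjusted p ran from 0.253 to 0.366, so none passed, and all passed DESeq2 (adjusted p up to 0.0244). AI661453, whose role is not annotated in the sources used here, stood at 19.3, 16, 20.7 and 22.2 CPM in sham and at a median of 5.70 CPM (lowest 2.02, highest 9.72) after hepatectomy (-1.84, SE 0.327). Styk1, a membrane protein with a kinase-like domain, had the largest difference of them (-2.06, SE 0.438), with 4.25 to 8.51 CPM in sham and 0.459 to 2.32 CPM after hepatectomy. Pisd-ps1 (-1.65, SE 0.277) is a transcribed pseudogene of phosphatidylserine decarboxylase, so its reads may be shared with the parent gene.

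Syt7, a calcium sensor of lysosome exocytosis, stood at 8.43, 15.8, 11.1 and 7.12 CPM in sham and at a median of 3.50 CPM (lowest 2.20, highest 4.89) after hepatectomy (-1.57, SE 0.299), with -1.57 at day 3 and -1.56 at day 7. Ces2g, a carboxylesterase, stood at 27.5, 28.6, 21.9 and 31.5 CPM in sham and at a median of 14.9 CPM (lowest 13.5, highest 19.8) after hepatectomy (-0.82, SE 0.161). Ahsa2, related to an activator of the HSP90 chaperone, differed by -0.61 (SE 0.133). Sfrp5, a secreted inhibitor of Wnt signalling made by adipocytes and named after its values were seen, had one of the larger differences (-2.79, SE 0.681), with 15.8 to 53.9 CPM in sham and 0.747 to 14.2 CPM after hepatectomy.

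Cep97, a centrosome protein that holds back cilium growth, ranged from 10.1 to 12.1 CPM in sham and 3.79 to 7.72 CPM after hepatectomy (-1.03, SE 0.231). Among the 130, and named after their values were seen, were also Evc, part of the Hedgehog-signalling complex at the ciliary base (-1.18, SE 0.290), Spice1, a centriole protein (-1.19, SE 0.354), Tubgcp4, part of the complex that nucleates microtubules (-0.52, SE 0.146), and Inpp5e, a phosphatase of the ciliary membrane (-0.63, SE 0.214). Evc lay at 23.7 to 34.3 CPM in sham and 5.50 to 17.3 CPM after hepatectomy. Cdon, a Hedgehog co-receptor, ranged from 85.9 to 179 CPM in sham and 38.8 to 85.3 CPM after hepatectomy (-0.91, SE 0.232), so that its groups nearly touched.

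Of the 130 lower genes, 3 belonged to the interferon list. Of the 28 tested genes of the interferon list, 3 had a positive log2 difference, the median was -0.60 (-0.69 at day 3, -0.37 at day 7), and 11 were lower at an unadjusted p under 0.05 (4.97% of all genes were). The 3 without overlap (0.764% of all genes were lower without overlap) were Oas2, Oas3 and Oasl2. They belong to the 2-5 oligoadenylate synthetase family, whose active members sense double-stranded RNA and make a messenger of the antiviral response.

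Oas2 stood at 30.8, 31.5, 19.9 and 26.3 CPM in sham and at a median of 9.54 CPM (lowest 3.24, highest 15.6) after hepatectomy (-1.50, SE 0.337, DESeq2 adjusted p 0.0228). Oas3 stood at 12.8, 7.92, 4.13 and 5.16 CPM in sham, where library 1 was well above the rest, and at a median of 2.82 CPM (lowest 1.76, highest 3.78) after hepatectomy (-1.43, SE 0.342). Oasl2, a family member that lacks the synthetase activity, stood at 94.6, 77.2, 71.5 and 82.8 CPM in sham and at a median of 49 CPM (lowest 30.5, highest 62) after hepatectomy (-0.76, SE 0.198). The other members of this family were chosen after their values were seen. Oas1b was lower in all 8 libraries too (-1.55, SE 0.476), but the Oas1 genes are close copies and their counts are uncertain. Oasl1 went the other way (0.44, SE 0.541).

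Samd9l, an interferon-induced antiviral factor (chr6:3372257-3399573, mm39), had a narrow spread in sham, at 54.2, 54.8, 49.8 and 51.9 CPM, and stood at a median of 27.4 CPM (lowest 20.4, highest 39.4) after hepatectomy (-0.92, SE 0.165). Apol9b, an interferon-induced apolipoprotein L gene, stood at 14.4, 13.7, 8.56 and 17.3 CPM in sham and at a median of 4.26 CPM (lowest 1.58, highest 8.30) after hepatectomy (-1.59, SE 0.347), and its highest hepatectomy library, day 3 library 3, lay just under its lowest sham library. Its near-copy Apol9a, and Uba7, were named after their values were seen. Apol9a differed by -1.37 (SE 0.354), and reads of the Apol9 pair may be shared. Uba7, the enzyme that activates the ubiquitin-like ISG15, ranged from 40.6 to 48.4 CPM in sham and 7.72 to 29.98 CPM after hepatectomy (-1.15, SE 0.324).

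Other interferon genes overlapped. Irf9, a subunit of the factor that binds interferon response elements, lay below all sham libraries in 7 of 8 hepatectomy libraries (-0.49, SE 0.180). Bst2, an antiviral membrane tether, had the largest positive difference of the list (0.78, SE 0.442). Cxcl9, a T cell chemoattractant induced by interferon-gamma and named after its values were seen, lay below all sham libraries in 7 of 8 (-1.14, SE 0.431).

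The promoters of the lower genes were searched for the core of the interferon-stimulated response element, GAAA, any 2 bases and GAAA on either strand, in the 250 bases before the gene's start (RefSeq, GRCm38.p6). Of the 130 lower genes, 97 had a promoter in the table and 7 held the motif (7.22%), namely Agbl2, Apol9b, Mndal, Oas3, Pilrb1, Rbm43 and Trim5. Oas2, Oasl2, Oas1b, Samd9l and Uba7, also lower in all 8 libraries, were not among the 7, for lack of a match or of a promoter entry. Of 54 higher genes with a promoter, 1 held it (1.85%), namely Psmb3. Of all genes tested, 389 of 11710 with a promoter held it (3.32%), where a match in any promoter of a gene counted. Counted by single promoters, those listed for the mouse gave 978 of 32851 (2.98%). A match is a run of letters, not a shown binding site. The promoters of 4 of these genes that respond to interferon are printed 5′ to 3′ along the gene, with the matches in capitals, because they show where the letters lie relative to the start. The match began 75 bases before the start in Oas3 (chr5:120777660-120777909, minus strand), 37 in Apol9b (chr15:77728822-77729071, plus strand, 2 overlapping matches), 49 in Trim5 (chr7:104288107-104288356, minus strand) and 36 in Mndal (chr1:173880188-173880437, minus strand).
Oas3: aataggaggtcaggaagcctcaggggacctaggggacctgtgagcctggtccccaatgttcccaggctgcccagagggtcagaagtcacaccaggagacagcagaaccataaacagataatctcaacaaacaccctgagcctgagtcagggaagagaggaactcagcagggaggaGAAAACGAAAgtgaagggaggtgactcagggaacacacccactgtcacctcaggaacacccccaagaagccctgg
Apol9b: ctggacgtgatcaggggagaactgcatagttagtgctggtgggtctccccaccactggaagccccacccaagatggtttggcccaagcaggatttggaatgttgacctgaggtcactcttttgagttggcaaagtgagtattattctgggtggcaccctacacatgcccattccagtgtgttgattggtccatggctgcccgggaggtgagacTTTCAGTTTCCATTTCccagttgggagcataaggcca
Trim5: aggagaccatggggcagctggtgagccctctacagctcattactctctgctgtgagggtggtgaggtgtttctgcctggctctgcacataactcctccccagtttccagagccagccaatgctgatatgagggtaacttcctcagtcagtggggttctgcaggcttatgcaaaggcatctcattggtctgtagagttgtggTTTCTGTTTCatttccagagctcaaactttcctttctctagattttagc
Mndal: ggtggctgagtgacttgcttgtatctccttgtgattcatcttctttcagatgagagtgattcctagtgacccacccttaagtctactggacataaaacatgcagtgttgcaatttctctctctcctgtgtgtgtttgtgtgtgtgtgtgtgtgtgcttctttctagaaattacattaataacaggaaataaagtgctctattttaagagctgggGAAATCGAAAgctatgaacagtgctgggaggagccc
Trim5 and Mndal were named after their values were seen. Trim5, a restriction factor family member, ranged from 7.20 to 12.1 CPM in sham and 1.70 to 6.43 CPM after hepatectomy (-0.83, SE 0.318). Mndal, a DNA-sensing PYHIN family gene, ranged from 30.5 to 45.2 CPM in sham and 9.66 to 29.5 CPM after hepatectomy (-1.03, SE 0.298), with its groups separated by about 1 CPM.

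Chemokine and leukocyte genes were also among the lower genes. Ccl11, eotaxin-1, the chemokine that draws eosinophils (chr11:81948649-81953782, mm39), stood at 61.5, 43, 48.8 and 41.9 CPM in sham and at a median of 22.6 CPM (lowest 12.2, highest 32.7) after hepatectomy (-1.09, SE 0.222, DESeq2 adjusted p 0.0115). Il16, the precursor of a chemoattractant for CD4+ cells, stood at 31.7, 33.2, 34.8 and 43.7 CPM in sham and at a median of 19 CPM (lowest 13.4, highest 28.6) after hepatectomy (-0.89, SE 0.200). Zbtb46, a transcription factor of classical dendritic cells, held to 27.4 to 28.7 CPM in sham and 13.3 to 27.2 CPM after hepatectomy (-0.53, SE 0.184), and day 3 library 2 lay within 0.2 CPM of the lowest sham library.

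**Figure D3:**
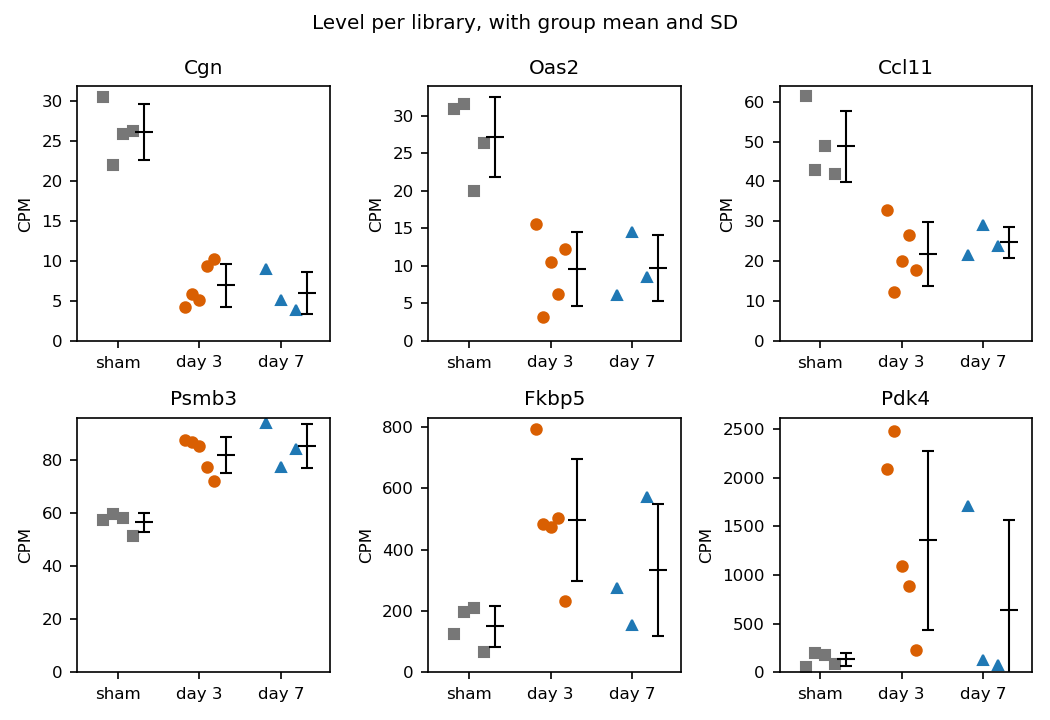
CPM of 6 genes in each library (points; 4 sham, 5 day 3, 3 day 7), with the group mean and SD beside them; each y axis starts at 0. Cgn, Oas2, Ccl11 and Psmb3 separate both days from sham, whereas for Fkbp5 and Pdk4 some day 3 or day 7 libraries lie within or near the sham range, such as day 7 library 3 at 75.3 CPM of Pdk4.

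Lists of B cell, mast cell and dendritic cell markers had negative medians. Of their genes 1, Zbtb46, separated the libraries (0.764% of all genes were lower without overlap). B and plasma cell genes had a median of -2.54 over 12 genes tested, 10 of them negative, and 0 without overlap. Igkc, an antibody light chain, stood at 82.7, 1.19, 71.9 and 78.8 CPM in sham and at a median of 3.75 CPM (lowest 1.76, highest 33) after hepatectomy, so that sham library 2 lay below every hepatectomy library while the other sham libraries lay above all of them. Cd79a, part of the B cell receptor, was at 0 counts in 5 of 8 hepatectomy libraries and at 8.77, 0.363, 1.38 and 1.86 CPM in sham. The summed list held 486 to 790 CPM in sham and 451 to 1403 CPM after hepatectomy, so that the sum did not share the sign of the median.

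Mast cell genes had a median of -1.29 over 10 genes, 8 of them negative. The proteases Cpa3, Tpsb2 and Cma1 differed by -1.62 (SE 0.443), -1.76 (SE 0.608) and -1.95 (SE 0.702), with sham library 2 low for all 3. Kit, the receptor mast cells need and other cells also carry, went the other way (1.27, SE 0.512). Mrgprb1, a mast cell receptor outside the list named after its values were seen, was lower in all 8 libraries (2.28 to 7.72 CPM in sham, 0 to 1.79 CPM after hepatectomy, -2.75, SE 0.891).

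Dendritic cell and MHC class II genes had a median of -1.08, with 11 of 14 negative. H2-Eb1, an antigen-presenting chain, stood at 109.8, 46.7, 160.3 and 182 CPM in sham and at a median of 18 CPM (lowest 4.65, highest 131) after hepatectomy (-1.47, SE 0.801), and the 2 libraries inside the sham range were day 3 library 5 and day 7 library 2, at 124 and 131 CPM. Macrophage genes had a median of 0.10 and T and NK cell genes one of -0.053, and the sign of both changed with the library left out. Red blood cell genes were all positive (10 of 10, median 1.83), and their summed level was 1601 to 4676 CPM in sham and 1955 to 28045 CPM after hepatectomy. Day 3 library 1 was the lowest hepatectomy library, and day 7 libraries 2 and 3, at 4363 and 4114 CPM, also lay inside the sham range.

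Glucocorticoid response genes were higher in most, not all, hepatectomy libraries. Of 30 genes, 27 were positive, the median was 0.84 (0.91 at day 3, 0.63 at day 7), 14 were higher at an unadjusted p under 0.05 (6.34% of all genes), and DESeq2 called 6 (0.682%). None of the 30 separated the groups. Summed over the list, they held 4241 to 5733 CPM in sham and 4850 to 21800 CPM after hepatectomy. Day 3 library 5 and day 7 libraries 2 and 3 lay inside the sham range, at 5723, 5215 and 4850 CPM. Fkbp5, a co-chaperone induced by glucocorticoids that damps their receptor, stood at 126, 197, 209 and 66.4 CPM in sham and at a median of 477 CPM (lowest 153, highest 793) after hepatectomy (1.54, SE 0.436). For Fkbp5, the 1 library inside the sham range was day 7 library 2, at 153 CPM.

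Klf9, a transcription factor gene with the same hormone response, stood at 109, 187, 216 and 177 CPM in sham and at a median of 338 CPM (lowest 214, highest 583) after hepatectomy (1.07, SE 0.305), with day 7 library 2 just inside the sham range. Errfi1, an inhibitor of the EGF receptor, differed by 1.54 (SE 0.446). Pdk4, the kinase that shuts off pyruvate dehydrogenase in fasting, had a wide spread, at 60.3, 203, 181 and 86.7 CPM in sham and at a median of 988 CPM (lowest 75.3, highest 2479) after hepatectomy (3.03, SE 0.927). Of the 8 libraries, 6 lay above all sham libraries, and day 7 libraries 2 and 3, at 123 and 75.3 CPM, did not.

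Clock genes had 20 of 22 positive differences and a median of 0.45, with 7 higher at an unadjusted p under 0.05 (6.34% of all genes); without sham library 1 the median was 0.30. Cry2 and Per2, repressors of the core loop, differed by 0.80 (SE 0.238) and 0.87 (SE 0.286). Cry2 stood at 38.9, 42.9, 56 and 65.8 CPM in sham and at a median of 80.1 CPM (lowest 53.2, highest 124) after hepatectomy, and Nfil3, a clock output repressor, at 16, 21.8, 17.5 and 5.47 and a median of 41.7 CPM (lowest 16.1, highest 157) (1.95, SE 0.649). The hour of killing is not given in the labels, so its part was not tested.

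Stress and cytokine genes had larger differences carried by 5 or 6 of the 8 libraries. Fgf21, a stress hormone of liver and fat, had 0 counts in all 4 sham libraries and was detected in 6 of 8 hepatectomy libraries, at a mean of 3.18 CPM. Against a floor of 3 counts over the sham group (0.0388 CPM) this was at least 82.2-fold higher. Without day 7 library 1, the highest, the mean was 1.60 CPM and the bound 41.4-fold. Gdf15, a stress hormone that curbs appetite, stood at 0.684, 1.35, 0 and 0.774 CPM in sham and at a median of 5.02 CPM (lowest 0.265, highest 82.2) after hepatectomy (4.37, SE 1.52), with day 7 library 1 far above the rest. The integrated stress and unfolded protein list had 16 of 20 positive differences (median 0.49, and 0.33 without sham library 1). Summed over the list, the genes held 2230 to 3741 CPM in sham and 2654 to 6682 CPM after hepatectomy, so that the groups overlapped. Day 7 library 1 was highest, and day 7 libraries 2 and 3 lay inside the sham range, at 2766 and 2803 CPM.

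The IL-6 and STAT3 list had 18 of 23 positive differences and a median of 0.67. Summed over the list, the genes held 1301 to 1759 CPM in sham and 1351 to 3377 CPM after hepatectomy. Day 3 library 5 and day 7 libraries 2 and 3 lay inside the sham range, at 1440, 1548 and 1351 CPM. Stat3 itself, the transcription factor below the IL-6 receptor, stood at 170.4, 232, 205 and 154 CPM in sham and at a median of 366 CPM (lowest 196, highest 674) after hepatectomy (1.06, SE 0.372). Myc, one of its target genes, differed by 1.82 (SE 0.575, DESeq2 adjusted p 0.0431). Day 3 library 5 and day 7 libraries 2 and 3 held 196, 199 and 204 CPM of Stat3, inside the sham range, and the same 3 libraries were the lowest for Myc, Pdk4 and Mt1.

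Of 16 tested genes of metal and haem handling, 13 had a positive log2 difference, with a median of 0.37, and 5 were higher at an unadjusted p under 0.05 (6.34% of all genes). Summed over the list, they held 13985 to 26001 CPM in sham and 15055 to 37338 CPM after hepatectomy, so that the groups overlapped. Mt1, a metallothionein that binds zinc, stood at 799, 499, 248 and 136 CPM in sham and at a median of 2774 CPM (lowest 252, highest 5206) after hepatectomy (2.49, SE 0.886). Hmox1, which breaks down haem, stood at 155, 138, 40.9 and 29.1 CPM in sham and at a median of 596 CPM (lowest 35.7, highest 990.4) after hepatectomy (2.53, SE 0.843), while Slc39a14, a zinc and iron importer, differed by 2.27 (SE 0.786, DESeq2 adjusted p 0.0426).

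The medians of 5 lipid lists had opposite signs at day 3 and day 7. Fatty acid synthesis had 16 of 18 positive differences and a median of 0.70, which came from 1.49 at day 7 against -0.18 at day 3. Without day 7 library 2 the pooled median was 0.18. Fasn, the fatty acid synthase, stood at 190.4, 357, 474 and 826 CPM in sham and at a median of 373 CPM (lowest 102, highest 11608) after hepatectomy, with day 7 libraries 2 and 3 at 11608 and 10168 CPM and day 7 library 1 at 115 CPM. Lipolysis, cholesterol and fatty acid oxidation lists had medians of -0.069, 0.089 and -0.072, and the sign of each changed with the library left out. So did that of triglyceride assembly, with a median of 0.055 (-0.23 at day 3, 0.082 at day 7).

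Ehhadh, a peroxisomal oxidation enzyme, stood at 28.4, 64.1, 64.1 and 82.8 CPM in sham and at a median of 226 CPM (lowest 73.2, highest 641) after hepatectomy (2.10, SE 0.564, DESeq2 adjusted p 0.0101), above all sham libraries in 7 of 8. Day 3 library 5 was the exception. Pnpla2 and Lipe, the lipases that release fatty acids from stored fat, differed by 0.16 (SE 0.279) and -0.14 (SE 0.340).

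Mature adipocyte genes had a median of -0.27 with 7 of 22 positive, and one of -0.12 without sham library 4 or without day 7 library 1 and of -0.45 without day 7 library 2. Adipoq, which encodes the hormone adiponectin, had a difference of -0.71 (SE 0.549), and 5 of 8 hepatectomy libraries lay below all sham libraries and 1, day 3 library 5, above them. Lep, the satiety hormone leptin, stood at 222, 707, 134 and 275 CPM in sham and at a median of 367 CPM (lowest 15.6, highest 605) after hepatectomy (-0.013, SE 0.699). Pparg, the master factor of fat cell differentiation, differed by -0.18 (SE 0.266). Aqp7, the glycerol channel of adipocytes, stood at 103, 135, 108 and 141 CPM in sham and at a median of 31.9 CPM (lowest 4.47, highest 122) after hepatectomy (-1.46, SE 0.693), with day 3 library 5 and day 7 library 2 highest.

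Cell cycle genes had a median of -1.42, with 2 of 40 positive and 13 lower at an unadjusted p under 0.05 (4.97% of all genes). This rested on the high value of sham library 1: the summed list held 1938, 691, 193 and 277 CPM in sham libraries 1 to 4 and 183 to 873 CPM after hepatectomy, and without sham library 1 the median was -0.34. Pttg1, securin, which restrains the enzyme that parts sister chromatids, stood at 32.4, 31.2, 28.5 and 37.5 CPM in sham and at 2.43, 3.30, 5.23, 3.17 and 3.05 CPM at day 3. At day 7 it stood at 28.6, 29.9 and 6.56 CPM, so that it was not shifted at both days in common. It was the 1 gene edgeR called for day 3 against sham (0.00588% of genes). Day 7 against sham and day 7 against day 3 each gave 0 calls (0%), with DESeq2 calling 70 and 22. Wapl, which releases cohesin from chromatin, was higher in all 8 libraries, at 84.3, 91.1, 92.9 and 92.5 CPM in sham and at a median of 115 CPM (lowest 99.8, highest 135) after hepatectomy (0.38, SE 0.135).

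**Figure D4:**
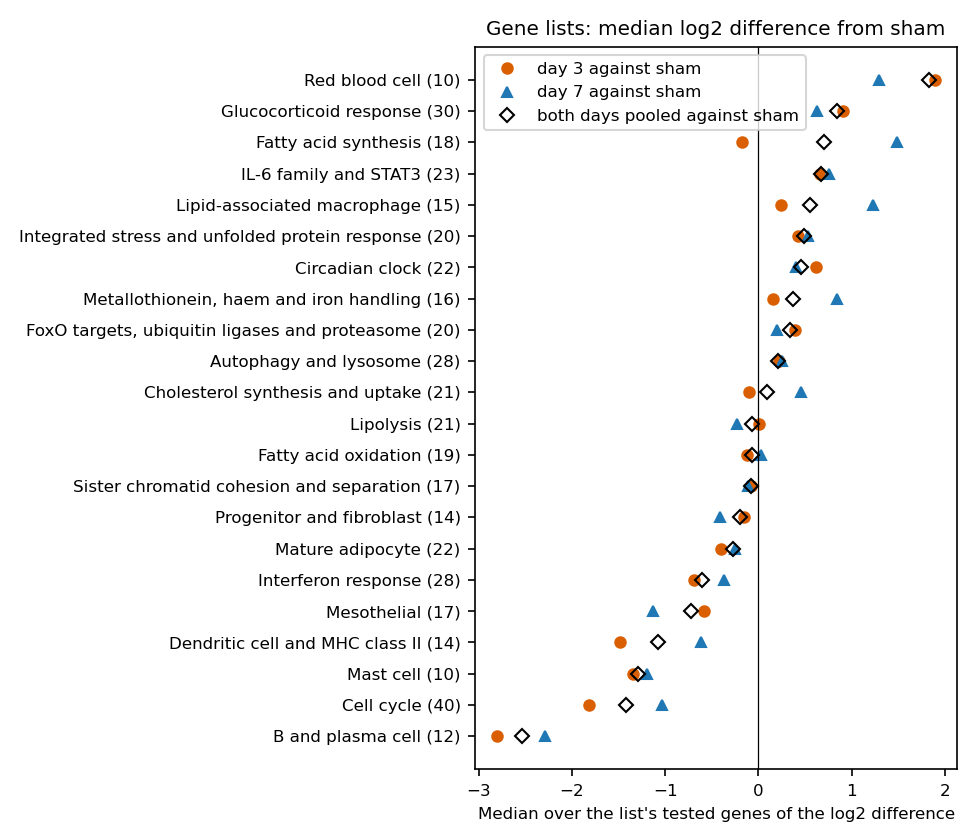
Median log2 difference from sham over the tested genes of each of 22 gene lists (x axis; the number tested stands in brackets), for both days pooled and for each day, which share the 4 sham libraries. Glucocorticoid, IL-6 and red blood cell lists lie right of 0 at both days. Cell cycle, B cell and mast cell lists lie left of it at both days. Fatty acid synthesis lies at -0.18 at day 3 and 1.49 at day 7. At day 7, the summed CPM of the glucocorticoid, IL-6 and red blood cell lists lay above the sham range in library 1 alone.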

How the data were processed

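Total gene expression was measured by bulk RNA sequencing in 12 fat pads. Per the submitters' processing notes, Partek, STAR and DESeq2 were used with build mm39; versions and roles are not given in the sources used here. The authors deposited 1 table with expected counts per gene and sample, of which 28.5% to 39.6% of a column were not whole, and a second set in which the authors had divided the counts by 1 factor per sample (normalized signal). It also holds the authors' log2 ratios and their p-values with false discovery rates for each day against sham. Of the 18086 deposited lines of sample values, 18065 stood beside another gene than their own. Each line was therefore matched to its gene by the authors' mean and maximum of normalized counts, to a relative tolerance of 3e-05. This gave 1 gene for 18070 lines, and gene order settled the other 16. The other 4065 genes, with 0.0784% of normalized counts by the authors' means, were not used.

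Counts were rounded and fitted with edgeR 4.0.16 (R 4.3.3): TMM scaling, filterByExpr with a minimum count of 10, a robust quasi-likelihood test with 1 hepatectomy coefficient, and Benjamini-Hochberg adjustment at 0.05. A fit with 1 coefficient per group gave the day estimates. CPM are scaled by TMM, and log2 differences are those of the edgeR fit. A prior count of 2 was used only for log CPM, such as those in correlations between libraries. DESeq2 1.42.0 and limma 3.58.1 (voom) were alternatives. The code was tested on simulated data.

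The members and lists were chosen with earlier results of these data known. Named were, in each direction, the 12 genes of smallest p among those without overlap, with a mean of at least 1 CPM and no predicted symbol, since none passed the test, and the 4 genes of smallest p of each list. Members that went the other way from most of a list were named too. Adipoq, Lep, Pparg, Pnpla2, Lipe, Fasn and Pttg1 were always named, and Alb, Xist and Ddx3y as marks of libraries standing apart. Other genes are said to have been chosen after their values were seen. Strandedness is not stated, so antisense pairs cannot be told apart. Promoters came from RefSeq. Some genes that the rule names are not reported here.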

Additional observations from a re-analysis of the deposited data

Results flagged for a closer look

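Pairs of a named gene and a group (4 sham or 8 hepatectomy libraries) were checked for a library standing apart. In 22 of 228 pairs, the highest or lowest library lay far from the others. A chance rate of about 1 in 20 holds for independent, normally distributed values, which was not checked for these CPM. Alb, Xist and Ddx3y were named because they mark such libraries, and other genes after their values were seen. The share was therefore not judged against chance. Of the 22, 5 came from day 7 library 3. It was highest of the hepatectomy libraries for Gpnmb (788 CPM) and Trem2 (179 CPM), genes of lipid-associated macrophages, for Atp6v0d2 (120.4 CPM), a proton pump subunit of such cells, and for the mitosis genes Kif23 (9.65 CPM) and Esco2 (2.43 CPM). Day 7 library 1 was highest for the stress genes Fgf21 (14.2 CPM), Gdf15 (82.2 CPM), Trib3 (99.1 CPM) and Sqstm1 (1278 CPM). Day 7 library 2 was highest for Cidea (7.80 CPM), a lipid droplet gene of brown and beige fat, and for Alb (192 CPM).

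Sham library 1 was highest in its group for Pisd-ps1 (35.4 CPM), Clcf1 (17.6 CPM) and Cebpb (163 CPM). Sham library 2 was lowest for the antibody genes Igkc (1.19 CPM) and Jchain (0.155 CPM) and highest for Nsdhl (16.5 CPM). Sham library 3 was highest for Cpt1b (0.958 CPM), and sham library 4 was highest for Alb (2315 CPM). Day 3 library 5 was the highest hepatectomy library for Cd79a (0.994 CPM). Day 3 library 1 was highest for Xist (359 CPM) and lowest for Ddx3y (0.643 CPM).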

How the results depend on the processing

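DESeq2 called 156 genes for both days pooled, 122 for day 3 and 70 for day 7 against sham, and 22 for day 7 against day 3, where edgeR called 0, 1, 0 and 0, and 62 genes were both called by DESeq2 and without overlap. Voom with sample weights called 4 pooled genes, all 4 without overlap, and the separation of libraries alone gave 212. With a library left out, edgeR called 0 to 2 pooled genes, 0 to 2 without overlap, 0 to 2 for day 3, 0 to 3 for day 7 and 0 to 4 for day 7 against day 3. Without both day 3 library 5 and day 7 library 1 it called 1 pooled gene, without overlap. The number without overlap was 225 to 556 with a library left out, an alternative added after the data were seen, since fewer libraries have to separate. Replicate numbers did not pair the libraries (10 same-number pairs, correlation of deviations -0.371 to 0.187). The replicate block gave 0 calls for pooled, day 3, day 7 and day 7 against day 3, and medians of 1.06 for the acute phase list (0.058 without the block, -0.23 to 0.28 with a library left out) and 1.38 for the hepatocyte list. The hepatocyte median of -2.81 followed albumin-rich sham library 4: it was 2.6 without that library, the top of a range from -3.39, and 2.90 without both sham library 4 and day 3 library 1. Of 2220 values of 111 named genes under alternatives, 2161 kept their direction and side of the threshold, 51 newly passed it and 8 changed sign. Lep, at -0.013, became 0.14 without day 3 library 4, 0.18 and 0.082 without day 7 libraries 1 and 2, 0.67 without sham library 2 (-0.28 without sham library 3) and 0.034 without both day 3 library 5 and day 7 library 1. Lipe ran from -0.27 to 0.0022 and Pnpla2 from -0.019 to 0.34 with a library left out. Pparg ran from -0.32 without sham library 1 up to -0.028 and was 0.028 without both sham library 4 and day 3 library 1. The causes were not tested. Depth limits genes near 1 CPM, where 13128853 counts hold few reads each.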

Other observations

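Several lists are not described above. Lysosome and autophagy genes had 23 of 28 positive differences and a median of 0.21. Ctsk, a collagen-degrading cathepsin, stood at 21.7, 19.1, 20.8 and 24.1 CPM in sham and at a median of 59.2 CPM (lowest 19.1, highest 122) after hepatectomy (1.47, SE 0.391), above all sham libraries in 7 of 8, day 3 library 5 being the exception. Hypoxia targets had 12 of 17 positive (median 0.53). Hilpda, an inhibitor of lipolysis that hypoxia and fatty acids induce, stood at 29.4, 18.4, 13.6 and 8.93 CPM in sham and at a median of 82.2 CPM (lowest 7.87, highest 488) after hepatectomy (3.04, SE 1.10), and day 3 library 5 and day 7 library 2 lay below all sham libraries.

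Lipid-associated macrophage genes had a median of 0.55 (12 of 15 positive, 0.24 at day 3 and 1.23 at day 7), and 0.28 without day 7 library 3. Progenitor and fibroblast genes had 11 of 14 negative differences (median -0.20). Dpp4, a marker of interstitial progenitors, stood at 42.7, 92.3, 90.1 and 128 CPM in sham and at a median of 44.4 CPM (lowest 19, highest 65.4) after hepatectomy (-1.02, SE 0.289). The list of p53 targets had 14 of 22 positive and a median of 0.21. Smaller medians were seen for YAP and TEAD targets (15 of 26 positive, 0.075), matrix genes (0.012), prostaglandin genes (-0.10), endothelial genes (0.088) and smooth muscle genes (0.068), against 0.0017 over all genes tested.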
